A study of Mus musculus with 17 samples.

Results

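Intermediate-CpG promoters outside the receptor families are start sites that the authors classed as ICP, read here as promoters of intermediate CpG content. Rows of olfactory, vomeronasal, taste and trace amine receptor genes were left out by symbol, which removed 213 of 3080 ICP rows. The remaining 2867 promoters were 2867 of 16493 classed rows, or 17.4% of the start sites used, and 2799 of them had a gene symbol. They were set beside 10564 high-CpG (HCP) and 2088 low-CpG (LCP) promoters that were also outside these families.

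CpG dinucleotides are rare in the mammalian genome because methylated cytosine mutates readily, and they are kept at high density in CpG islands, which mark the promoters of most housekeeping genes. Promoters of intermediate CpG density lie between these islands and the CpG-poor promoters of strongly tissue-specific genes. Micrococcal nuclease (MNase) digests naked DNA first, so that fragments of about nucleosome length report DNA that was protected. In sperm most histones have been replaced by protamines.

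The study mapped chromatin in embryonic stem (ES) cells and sperm with paired-end MNase sequencing. The ES cells were the E14 line (129 X Ola), grown without feeders in serum and LIF, digested with 10 units of MNase per 1000000 cells and represented by the supernatant of a 5000 g spin. No crosslinking is stated for them. Sperm were taken from C57/B6J mice of 10 weeks (cauda epididymis, vas deferens) and crosslinked with 1% formaldehyde for 15 min. The standard sperm digest used 1 unit per 100000000 cells and was also a supernatant. Titrations of sperm were unspun (0.5, 2, 10 and 50 units), supernatant (1, 5, 20 and 100 units) and pellet (1, 5, 20 and 100 units), and the sources used here do not give their cells per digest. All digests ran for 5 min at 37 °C. Each of these groups was 1 library, the sources used here do not give the number of mice per library, and ES cells and standard sperm differed in cell type, strain, fixation and enzyme per cell together. Of 17 samples, 14 were analysed here.

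Depth set what could be read from each library. ES cells held 40.4 fragment equivalents per promoter of the set within 1000 bp of the start site, and standard sperm held 27.9. Fragment equivalents are table sums divided by what an isolated fragment adds. In the titrations there were 0.661 to 0.987 per promoter in unspun, 0.449 to 0.928 in supernatant and 0.145 to 0.709 in pellet libraries, and 34.1% to 87.1% of the promoters had none. Single promoters were therefore compared in ES cells and standard sperm, and the titrations were read as sums over the set. In the 1-unit supernatant and pellet libraries, isolated signal covered only 1 or 2 bins in 82.0% and 86.7% of clusters, against 3.46% to 6.47% at the other doses. Without the lowest dose of each series, which takes out both of these libraries, the slopes described below were -0.045 for the share (exact permutation p = 0.032), 0.083 for the ratio after the start (p = 0.037) and 0.035 for the ratio before it (p = 0.20). Intervals below are exact 95% intervals that cover counting error only.

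To show the sequences behind the results, the 250 bases before the RefSeq start are given for 6 promoters of the set, 5′ to 3′, with CpG dinucleotides in capitals. Skint3 and Krtap19-1 had the highest sperm to ES cell ratios and Tlr5 and Tnf the lowest among promoters with a single RefSeq sequence, and Alb and Tnp1 are a liver and a spermatid gene chosen by name. Their GRCm38.p6 positions are chr4:112231995-112232244 (plus strand) for Skint3, chr16:88869411-88869660 (minus) for Krtap19-1, chr5:90460620-90460869 (plus) for Alb, chr1:73015900-73016149 (minus) for Tnp1, chr1:182954538-182954787 (plus) for Tlr5 and chr17:35202008-35202257 (minus) for Tnf. The deposited start sites are in mm9 and may differ from these starts.
Skint3: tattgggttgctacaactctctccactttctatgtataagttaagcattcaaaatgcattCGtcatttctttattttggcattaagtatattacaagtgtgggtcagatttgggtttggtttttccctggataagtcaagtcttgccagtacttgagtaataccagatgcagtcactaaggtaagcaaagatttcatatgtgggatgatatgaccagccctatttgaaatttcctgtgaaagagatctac
Krtap19-1: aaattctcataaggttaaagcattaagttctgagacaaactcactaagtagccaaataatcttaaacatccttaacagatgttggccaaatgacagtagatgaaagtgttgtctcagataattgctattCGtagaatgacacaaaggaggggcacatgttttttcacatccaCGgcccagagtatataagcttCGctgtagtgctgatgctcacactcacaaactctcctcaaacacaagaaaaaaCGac
Alb: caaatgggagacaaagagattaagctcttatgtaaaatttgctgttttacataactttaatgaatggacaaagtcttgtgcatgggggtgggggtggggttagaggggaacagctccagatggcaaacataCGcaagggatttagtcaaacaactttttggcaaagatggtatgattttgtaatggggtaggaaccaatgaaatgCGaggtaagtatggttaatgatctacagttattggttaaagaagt
Tnp1: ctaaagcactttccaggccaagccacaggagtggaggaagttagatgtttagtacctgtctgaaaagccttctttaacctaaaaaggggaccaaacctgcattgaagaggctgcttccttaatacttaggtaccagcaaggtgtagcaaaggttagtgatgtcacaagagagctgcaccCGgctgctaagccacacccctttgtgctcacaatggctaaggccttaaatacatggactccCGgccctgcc
Tlr5: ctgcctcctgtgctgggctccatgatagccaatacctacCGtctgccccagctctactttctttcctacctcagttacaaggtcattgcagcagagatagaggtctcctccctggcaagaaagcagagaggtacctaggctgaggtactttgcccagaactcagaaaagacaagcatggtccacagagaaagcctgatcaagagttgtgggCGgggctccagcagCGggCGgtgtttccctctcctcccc
Tnf: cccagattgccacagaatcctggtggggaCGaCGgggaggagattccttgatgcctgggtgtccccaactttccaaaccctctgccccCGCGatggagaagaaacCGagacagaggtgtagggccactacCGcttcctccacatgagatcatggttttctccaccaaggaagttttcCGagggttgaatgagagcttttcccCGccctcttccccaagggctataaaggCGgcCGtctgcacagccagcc

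The upper and lower sequences differed in base composition. In these 250 bases Skint3 had 1 CpG and a GC content of 36.8%, Krtap19-1 had 4 CpGs and 38.8%, and Alb had 2 and 39.2%. Tnp1 had 2 CpGs and 49.2%. Tlr5 had 4 CpGs and 55.2%, and Tnf had 10 CpGs and 57.6%. The letters TATAAA occurred in the Tnf sequence, with the first base 29 bp before the start, and GGGCGG occurred on either strand in both Tlr5 and Tnf.

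As a set, intermediate-CpG promoters lay close to low-CpG promoters in sequence. A RefSeq sequence of 300 bases, 250 before and 50 after the start, was matched to 2176 promoters (75.9%). Fewer than 80% matched, so a check over the whole set is void, and the values describe the 1629 promoters (56.8%) with exactly 1 sequence. Their median was 6 CpGs (quartiles 3 and 10) and 51.3% GC. High-CpG promoters had a median of 22 CpGs and 62.3% GC, and low-CpG promoters had 3 CpGs and 50.0% GC. TATAAA on either strand was in 17.7% of the set, against 6.53% of high-CpG, 21.2% of low-CpG and 12.7% of all classed promoters with 1 sequence. GGGCGG was in 28.9%, against 71.1%, 18.6% and 52.6%. CCAAT was in 39.3%, near the 38.8% of all classed promoters. Each motif was counted alone on both strands, matches of CCAAT and GGGCGG can overlap, and a match is only a match of letters.

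Around the start site, ES cells showed a shallow loss of nucleosome-length fragments. Mean signal over the 200 bp before the start was 0.807 (0.791 to 0.824) times that of the flanks 1000 to 2000 bp away, and over the 300 bp after the start it was 0.824 (0.810 to 0.838). High-CpG promoters had 0.346 and 0.316, and low-CpG promoters 0.889 and 0.884. The intervals of the 3 classes did not overlap, and the set lay nearer the low-CpG class. The mean profile, smoothed over 5 bins of 20 bp, was lowest, at 0.761, in the bin 30 bp before the start.

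Standard sperm had a deeper loss at the same promoters. Signal before the start was 0.684 (0.667 to 0.702) times the flanks, and after the start it was 0.612 (0.599 to 0.626). The lowest point of the profile smoothed in the same way, 0.575, lay 70 bp after the start, against 30 bp before it in ES cells. High-CpG promoters had 0.291 and 0.168 and low-CpG promoters 0.790 and 0.725 in this library, so that the order of the classes was the one in ES cells. With 1 library per group the difference between cells has no replicate check.

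**Figure D1:**
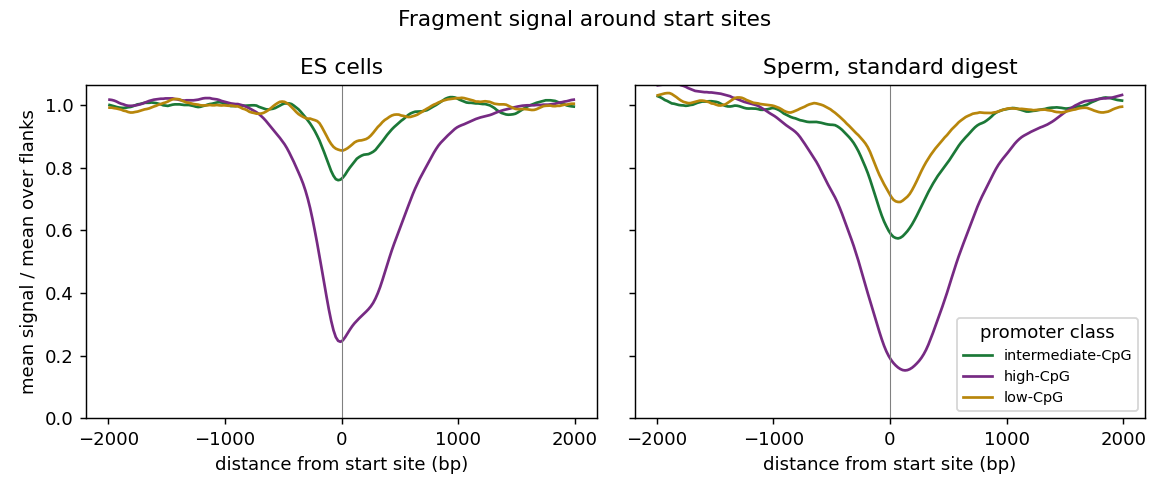
Mean fragment signal in 20 bp bins, smoothed over 5 bins, against distance from the start site in bp, for 3 promoter classes. Signal is relative to flanks 1000 to 2000 bp away, in ES cells (left) and standard sperm (right). Intermediate-CpG promoters reached 0.761 in ES cells and 0.575 in standard sperm, above high-CpG promoters (0.244 and 0.153) and below low-CpG promoters (0.855 and 0.691).

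Within the set the depth of this loss followed CpG number, which entered the authors' class and is given as a description. The 1629 promoters were ranked into 3 groups of 543 with medians of 3, 6 and 13 CpGs. In ES cells the ratio before the start was 1.00 (0.962 to 1.05), 0.824 (0.786 to 0.863) and 0.614 (0.581 to 0.648). In standard sperm it was 0.889, 0.735 and 0.499. After the start it was 0.944, 0.829 and 0.678 in ES cells and 0.753, 0.604 and 0.453 in standard sperm. The CpG-poorest group had no loss before the start in ES cells beyond its interval, but did have one in standard sperm, where its interval was 0.846 to 0.934. Of the 288 promoters with TATAAA, the ratio before the start was 0.949 in ES cells and 0.927 in standard sperm, against 0.785 and 0.666 for the 1341 without it. The 470 promoters with GGGCGG had 0.622 and 0.502, against 0.890 and 0.792 for the 1159 without it. These groups differed in CpG number too. The median was 4 with TATAAA and 7 without it, and 11 with GGGCGG and 5 without it. Motif and CpG number were not separated.

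The set held more signal than its number of start sites in both deep libraries. For 17.4% of start sites, ES cells gave it 20.5% (20.4 to 20.6) of the signal within 1000 bp of all classed start sites. Standard sperm gave it 21.6% (21.5 to 21.8). The high-CpG share was 56.9% and 49.4%, for 64.1% of start sites. The low-CpG share was 15.2% and 17.0%, for 12.7%.

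The share of the set fell as more MNase was used, in each of the 3 titrations. Unspun libraries gave 19.8% (19.2 to 20.5) at 0.5 units, then 17.9% and 18.2%, and 15.7% (15.0 to 16.3) at 50 units. Supernatant libraries gave 18.8%, 17.4%, 17.6% and 15.7% from 1 to 100 units. Pellet libraries gave 17.8%, 17.2%, 16.6% and 14.5%. At the highest dose each series was below the 17.4% of start sites that the set makes up. At the lowest dose unspun and supernatant were above it, while the interval of the pellet library (16.2 to 19.4) covered it. The slope shared by the series was -0.041 on the log2 scale per doubling of units. It passed an exact two-sided permutation test over 13824 orderings of the doses within series (p = 5.1e-04, Benjamini-Hochberg adjusted p = 0.0023 over 9 measures, n = 12 libraries). That test treats the series as independent, but supernatant and pellet of the same dose may come from a common digest. With their doses reordered together, the exact permutation p was 0.0052, unadjusted. From the lowest to the highest dose the log2 share fell by 0.34 in unspun, 0.26 in supernatant and 0.30 in pellet libraries.

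Against high-CpG promoters the fall was steeper, since the high-CpG share went from 59.6% to 69.6% in unspun, 58.6% to 67.8% in supernatant and 60.8% to 72.0% in pellet libraries. The log2 ratio of the shares fell by 0.074 per doubling (exact permutation p = 1.4e-04, adjusted p = 0.0013). Exact permutation p was 0.0035, unadjusted, with supernatant and pellet doses reordered together. The low-CpG share fell as well, from 15.1% to 11.3% in unspun, 15.0% to 12.9% in supernatant and 13.6% to 10.2% in pellet libraries. Against low-CpG promoters the slope was 0.012 (exact permutation p = 0.079, adjusted p = 0.10) and did not pass. This does not show that the 2 classes responded alike. Without the 1-unit supernatant library the slope was 0.015 (exact permutation p = 0.047, unadjusted) and without the 100-unit supernatant library 0.017 (p = 0.025).

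**Figure D2:**
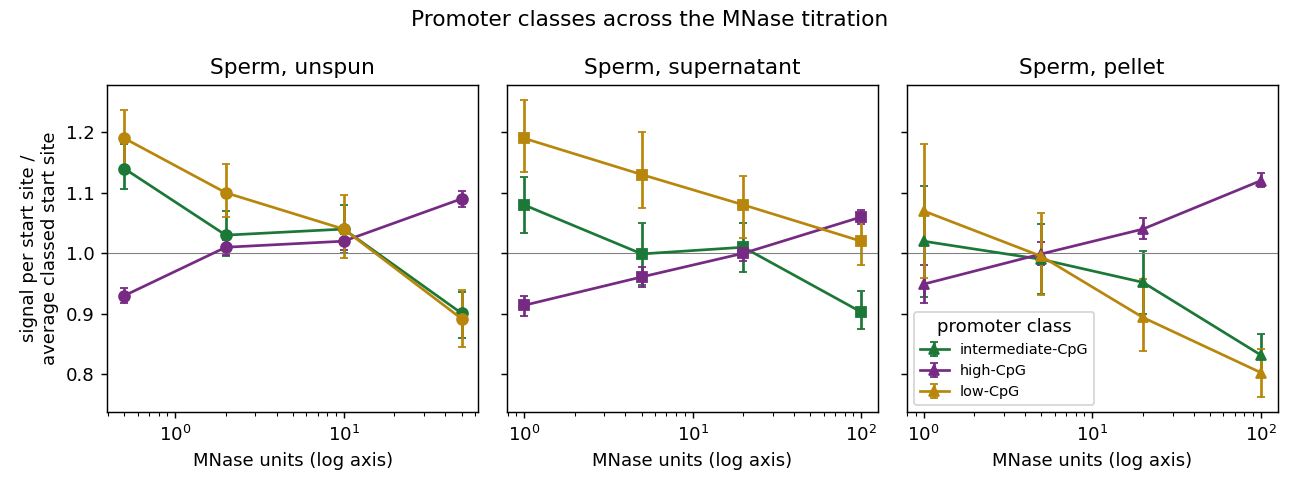
Signal per start site relative to the average classed start site (vertical axis) against MNase units on a log axis, for 3 promoter classes in unspun, supernatant and pellet sperm libraries. Points are single libraries and bars are exact 95% counting intervals. Intermediate-CpG promoters went from 1.14 to 0.901 in unspun, 1.08 to 0.903 in supernatant and 1.02 to 0.832 in pellet libraries, and high-CpG promoters from 0.930 to 1.09, 0.914 to 1.06 and 0.949 to 1.12. Low-CpG promoters went from 1.19 to 0.892, 1.19 to 1.02 and 1.07 to 0.803.

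The loss of signal after the start site seen in the standard digest was not present at the higher doses of the titrations. After the start site, the ratio to the flanks was 0.966, 1.13, 1.39 and 1.34 in unspun libraries from 0.5 to 50 units. In supernatant libraries it was 0.983, 0.989, 1.13 and 1.31 from 1 to 100 units, and in pellet libraries 0.858, 1.23, 1.10 and 1.68. The highest value, 1.68 (1.51 to 1.87), was in the 100-unit pellet library. Its profile, in 50 bp bins without smoothing, peaked at 1.78 in the bin 75 bp after the start. The rise with dose was 0.089 on the log2 scale per doubling (exact permutation p = 0.0014, adjusted p = 0.0031). Reordering supernatant and pellet doses together gave an exact permutation p of 0.010, unadjusted. The titration libraries lay above the 0.612 of the standard digest at every dose, the lowest being the 1-unit pellet library at 0.858 (0.639 to 1.13). The cells per digest are unknown for the titrations, so no dose can be matched to the standard one.

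Before the start site the same ratio moved less. It was 0.991, 1.09, 1.19 and 1.22 in unspun, 0.887, 1.14, 0.942 and 1.09 in supernatant and 1.02, 1.08, 1.13 and 1.37 in pellet libraries. The slope was 0.046 per doubling (exact permutation p = 0.012, adjusted p = 0.018). With supernatant and pellet doses reordered together the slope passed too (exact permutation p = 0.023, unadjusted). It kept its sign but no longer passed without the lowest doses (0.035, exact permutation p = 0.20), the highest doses (0.040, p = 0.15), the unspun series (0.046, p = 0.083) or the pellet series (0.038, p = 0.094).

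The rise at the start site was smaller than at high-CpG promoters. High-CpG promoters went from 0.559 to 1.88 after the start in unspun, from 0.630 to 1.68 in supernatant and from 0.825 to 2.17 in pellet libraries. The difference in log2 ratio between the set and high-CpG promoters fell by 0.127 per doubling after the start (exact permutation p = 0.0012, adjusted p = 0.0031) and by 0.053 before it (exact permutation p = 0.0095, adjusted p = 0.017). With supernatant and pellet doses reordered together, both differences passed (exact permutation p = 0.0052 and 0.023, unadjusted). Without the highest doses these were -0.097 (exact permutation p = 0.069) and -0.018 (p = 0.40). The one before the start also no longer passed without the unspun series (-0.038, exact permutation p = 0.083) or the pellet series (-0.052, p = 0.083). Low-CpG promoters rose after the start too, from 1.08 to 1.40 in unspun, 1.01 to 1.42 in supernatant and 0.919 to 1.45 in pellet libraries. Differences from low-CpG promoters were 0.018 after the start (exact permutation p = 0.35, adjusted p = 0.35) and -0.018 before it (exact permutation p = 0.20, adjusted p = 0.22), neither past the threshold.

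**Figure D3:**
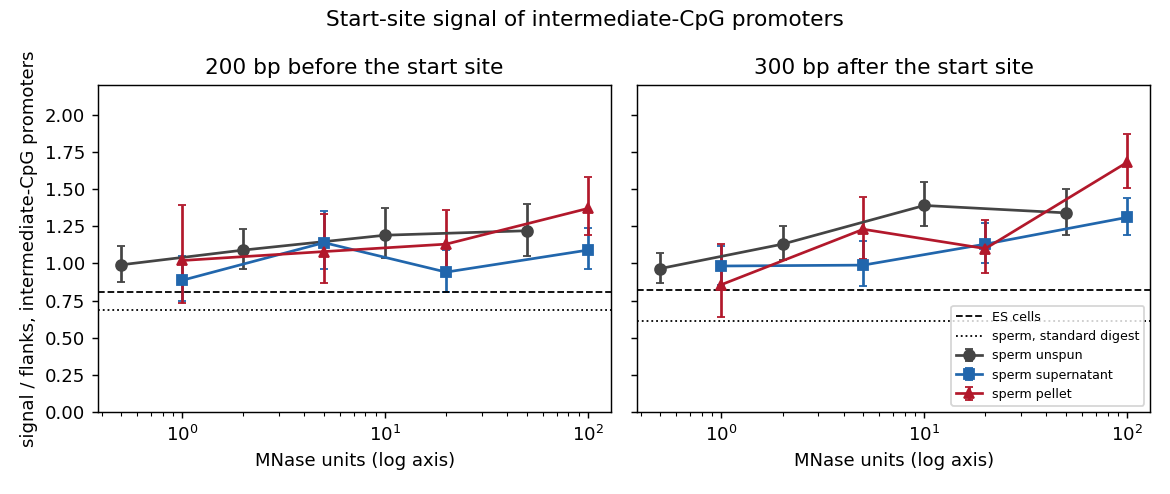
Signal of the intermediate-CpG promoters over the 200 bp before (left) and the 300 bp after (right) the start site, divided by the flanks, against MNase units on a log axis. Points are single libraries with exact 95% counting intervals, and the lines mark ES cells (0.807 and 0.824) and the standard sperm digest (0.684 and 0.612), which lay below all 12 titration points of each panel.

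Promoters of the set with low GC content had less signal at the highest doses than at the lowest. Over the 1629 promoters with 1 sequence, the 543 of lowest GC (27.7% to 48.0%) went from 1.15 (1.05 to 1.25) to 0.675 (0.597 to 0.759) times the average classed promoter in unspun libraries. In supernatant libraries they went from 1.05 to 0.709, and in pellet libraries from 1.25 to 0.635. The 543 of highest GC (55.0% to 83.7%) had 1.05 (0.962 to 1.15), 1.12, 1.30 (1.19 to 1.42) and 1.05 in unspun libraries from 0.5 to 50 units, so that 10 units stood above 0.5 units. From the lowest to the highest dose they went from 1.07 to 1.05 in supernatant and from 0.795 to 0.970 in pellet libraries. In each series the intervals of the low-GC group did not overlap between the lowest and the highest dose, while those of the high-GC group did. In standard sperm the order was the other way, with 1.70 (1.68 to 1.73) for the lowest GC, 1.19 for the middle and 0.878 (0.862 to 0.895) for the highest, against 1.34, 1.19 and 1.01 in ES cells. This grouping was chosen after the data were seen and is given with no test.

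**Figure D4:**
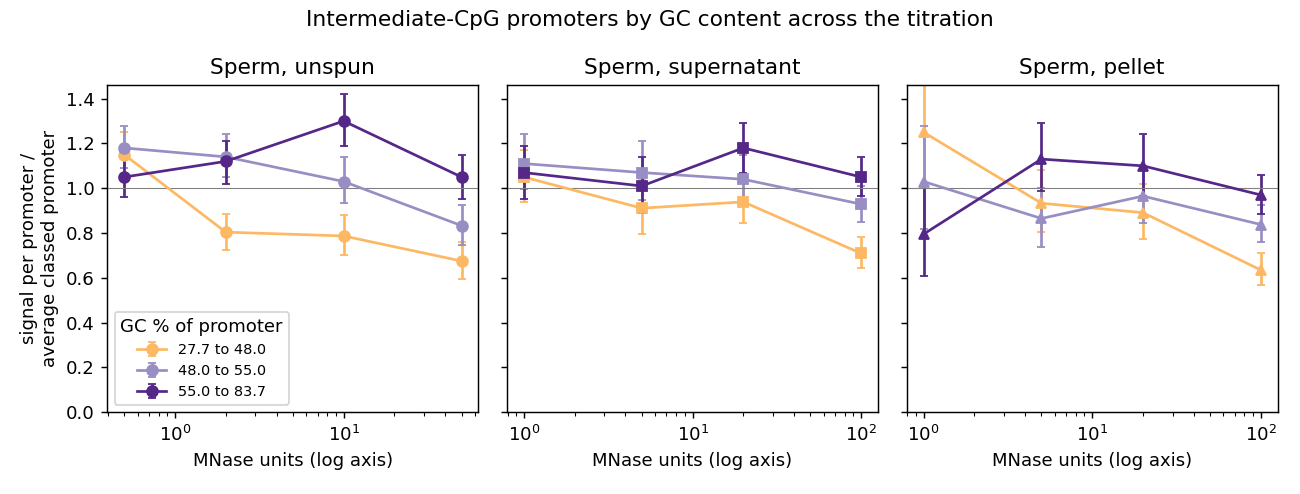
Signal per promoter relative to the average classed promoter (vertical axis) against MNase units on a log axis, for intermediate-CpG promoters in 3 equal groups by GC content of the RefSeq promoter sequence, with exact 95% counting intervals. The group of lowest GC ended at 0.675, 0.709 and 0.635 at the highest doses, below the group of highest GC at 1.05, 1.05 and 0.970.

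Supernatant and pellet of the same dose held nearly the same share of the set. The log2 ratio of supernatant to pellet was 0.08, 0.01, 0.08 and 0.12 from 1 to 100 units, above 0 at 4 of 4 doses, with a mean of 0.074 ± 0.044 (SD, n = 4 doses). An exact two-sided sign-flip permutation test gave p = 0.12, the smallest that 4 doses allow. For single promoters, only 76 of the 2867 reached 30 counts over the 8 libraries. edgeR's quasi-likelihood test with Benjamini-Hochberg adjustment called 0 of 505 promoters of any class for dose or fraction (0% called in each direction), and DESeq2 called 0 as well. At an unadjusted p under 0.05, edgeR gave 9 of 76 with a rising dose slope (11.8%) and 0 with a falling one, beside 39 rising and 0 falling of all 505. The 100-unit libraries were the deepest (50797 and 42179 counts in supernatant and pellet, against 26733 and 7026 at 1 unit). Scaling factors of edgeR (TMM) at 1 and 100 units were 2.38 and 0.776 in pellet and 0.807 and 0.652 in supernatant. What depth, this scaling or the minimum of 30 counts add to the slopes was not tested. Slopes rose at 54 of the 76 (71.1%) and 398 of all 505 (78.8%), so this split is not read as a result. For fraction edgeR gave 2 higher and 1 lower in supernatant among the 76, and 13 and 1 of 505. The smallest was Cdh15, a cadherin of muscle cells, with 12, 16 and 4 counts in the 20-unit and 100-unit supernatant and 100-unit pellet libraries and 0 in the other 5 (log2 slope 1.07 ± 0.43 SE, edgeR adjusted p = 0.485). It was picked out after its value was seen.

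Between ES cells and standard sperm the typical promoter of the set differed little in its share of the signal. Of 2746 promoters with at least 30 fragment equivalents in the 2 libraries together, 1424 had a higher share in sperm and 1322 a lower one. The median log2 ratio was 0.03, with quartiles of -0.38 and 0.44. High-CpG promoters had a median of -0.21, low-CpG promoters 0.08 and all classed promoters -0.07. A ratio of at least 2-fold higher was met by 161 promoters of the set, or 5.86%, where 5.64% of all 14373 promoters of that depth met it. At least 2-fold lower were 136, or 4.95%, where 7.79% of all met it. The higher share was near its background, and the lower share was under it. Low-CpG promoters had 7.54% higher and 4.91% lower, and high-CpG promoters 2.81% and 10.2%. The lower share was thus near that of low-CpG promoters and not particular to the set. The counts moved with the settings: within 2000 bp to each side 75 were 2-fold higher and 98 lower, within 200 bp 3 and 3, with a pseudocount of 5 fragments 141 and 45, and with at least 60 fragments 108 and 42. The share over all classed promoters is not given at these settings. Fewer promoters reach the depth within 200 bp or at 60 fragments, so these counts do not show a change in effect. With 1 library per group these are differences between libraries, and the median changed sign with the window (-0.11 over 200 bp and -0.01 over 2000 bp to each side).

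Skint3, of a family of butyrophilin-like genes that act in thymus and skin on epithelial T cells, was the extreme of the set. Its start site at chr4:111904849 (mm9) had 0 fragments in ES cells within both 1000 and 2000 bp, and 84.0 in standard sperm within 1000 bp. With ES cells set to a floor of 3 fragments its share was 42.7-fold higher in sperm, without counting error. Its log2 ratio was 7.02, and the lower bound of the interval was 5.09. In the titrations it had 0 in each of the 4 unspun and 4 pellet libraries and 0.667, 2.00, 1.00 and 0 in supernatant libraries from 1 to 100 units. A transcript with no symbol (NM_177865) lay 382 kb away, at chr4:112286356, also in the set. It had 1.95 fragments in ES cells and 69.3 in standard sperm.

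A start site with no CpG class lay 176 bp from Skint3, within its window. The nearest classed start sites on either side of Skint3 were low-CpG promoters of the same family. Skint4, 151 kb before Skint3, had 0 fragments in ES cells and 51.5 in standard sperm, and Skint9, 202 kb after Skint3, had 0 and 91.4. Skint10, 543 kb after Skint3, had 56.5 and 60.5. On the other side Slc5a9, 329 kb before Skint3, had 15.6 and 28.7. The 4 neighbouring classed start sites from Skint4 to NM_177865 were thus the ones at or near 0 in ES cells. These genes are similar copies, the sources used here do not say how reads mapping to several places were handled, and strain and cell type cannot be told apart between these libraries.

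Other promoters with a higher share in sperm had log2 ratios of 1.83 to 2.34. Krtap19-1, a hair keratin-associated protein, had 13.0 fragments in ES cells and 45.2 in standard sperm (log2 ratio 2.34, 1.5 to 3.43). Klf12, a zinc-finger repressor, had 16.1 and 53.0. Xcr1, the chemokine receptor of cross-presenting dendritic cells, had 16.2 and 49.5. The neuronal phosphatase gene Ptprd had 18.8 and 52.3, and the collagen VI chain gene Col6a4 had 17.9 and 49.9. Amy1, salivary amylase, had 34.3 and 86.7, with another start site 2988 bp away. Ankrd7 had 23.0 and 58.4, and the sodium/calcium exchanger gene Slc24a3 had 9.2 and 22.7. The titrations held 0 to 5.1 unspun, 0 to 6.3 supernatant and 0 to 4.0 pellet fragments at each of these 8, too few to rank them.

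The promoters with the lowest ratios had 27.5 to 60.6 fragments in ES cells and 3.1 to 7.0 in sperm. Krt80, an epithelial keratin, had 30.9 and 3.1 (log2 ratio -2.34, -4.98 to -1.04). Tlr5, the receptor for bacterial flagellin, had 60.6 and 7.0 (-2.33, -3.87 to -1.37), and Tnf, the inflammatory cytokine, had 42.0 and 4.6 (-2.32, -4.35 to -1.19). Ptges, which makes prostaglandin E, had 40.9 and 4.9. Plekhg4 had 40.1 and 5.5, and the calcium channel subunit gene Cacnb3 had 27.5 and 3.7. The remaining 4 were Gask1a, Scnn1a of the epithelial sodium channel, Cfb of the complement system and Pkp3 of desmosomes, with log2 ratios of -1.92 to -1.76. For Krt80, Gask1a and Pkp3 another start site lay 774, 32 and 1540 bp away, so part of the window is shared.

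The promoters past 2-fold were not set apart in the same direction in the other sperm libraries. By choice, the 161 higher ones went from 0.807 times the average classed promoter (ES cells) to 2.02 (standard sperm). In the 12 titration libraries they had 0.570 to 1.24, with a median of 0.867. The 136 lower ones had 1.24 in ES cells and 0.484 in standard sperm, and 0.776 to 1.40 in the titrations, with a median of 1.08. The group chosen as higher lay below the group chosen as lower in 10 of 12 titration libraries, and above it in the 1-unit supernatant and 1-unit pellet libraries. At the highest doses the higher group had 0.664 (0.525 to 0.827) in unspun, 0.667 (0.549 to 0.803) in supernatant and 0.570 (0.451 to 0.711) in pellet libraries.

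**Figure D5:**
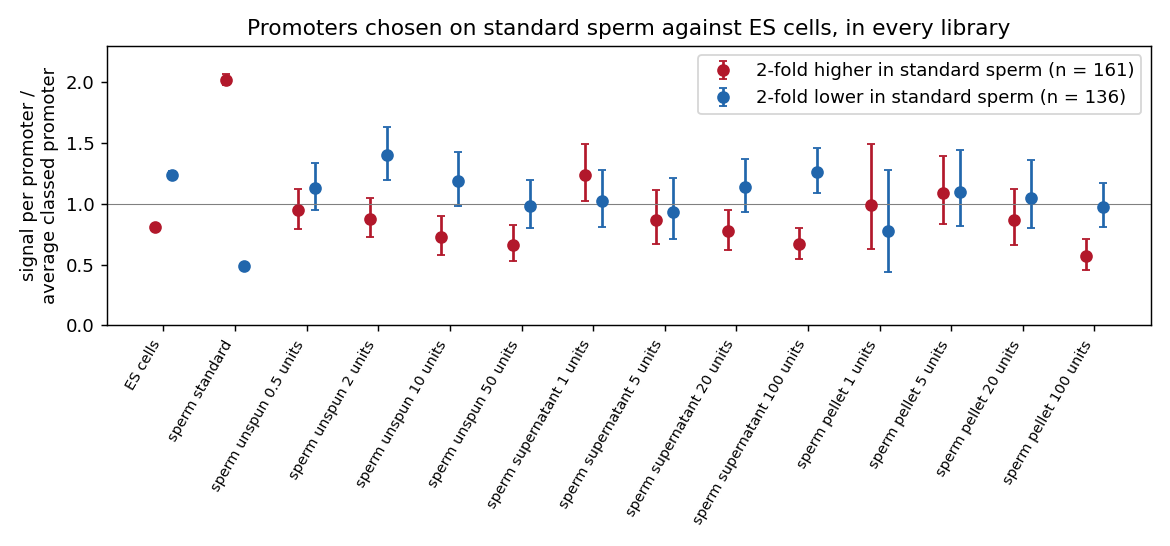
Signal per promoter relative to the average classed promoter in each of 14 libraries, for the 161 intermediate-CpG promoters chosen as 2-fold higher and the 136 chosen as 2-fold lower in standard sperm against ES cells, with exact 95% counting intervals. The 2 leftmost libraries fixed the choice, and in the other 12 the first group lay between 0.570 and 1.24 and the second between 0.776 and 1.40.

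Base composition differed between these groups too. Of the 161 higher promoters, 105 (65.2%) had 1 RefSeq sequence, with a median GC of 44.3% (quartiles 39.0% and 51.0%) and TATAAA in 33.3%. Of the 136 lower promoters, 77 (56.6%) had 1, with a median GC of 57.3% (53.0% and 60.7%) and TATAAA in 10.4%. The others had 51.3% and 17.4%. GGGCGG was in 21.9% of the higher, 48.1% of the lower and 27.1% of the other promoters. Under 80% had a sequence, so these values hold for the matched promoters only, and the part of base composition in the ratios was not tested.

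The 5 strongest single signals of the set differed between the libraries. In ES cells they were Adgrg7, an adhesion receptor (99.2 fragments), Rtn4, the neurite growth inhibitor Nogo (98.7), Rgs13, a regulator of G-protein signalling (96.5), Gbp5, an interferon-induced GTPase (96.5), and the calcium channel gene Cacna1d (91.8). Standard sperm had 40.3, 67.5, 51.8, 51.5 and 45.3 there. In standard sperm they were Sult1d1, a sulfotransferase (96.8), Csn1s2b, a milk casein (87.5), Amy1 (86.7), Gm4952 (85.5) and Skint3 (84.0). ES cells had 62.0, 54.3, 34.3, 71.4 and 0 there. The median promoter of the set had 39.5 fragments in ES cells and 25.7 in standard sperm.

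Marker genes of ES cells and spermatids, and the liver gene Alb, gave mixed values. Pou5f1, the pluripotency factor expressed in ES cells, had 33.4 fragments in ES cells and 9.0 in standard sperm (log2 ratio -1.17, -2.52 to -0.18). Within 200 bp of its start it had 10.2 and 0. Tnp1 and Tnp2, the transition proteins that come before protamines in spermatids, had 40.7 and 26.1 (-0.01, -0.80 to 0.71) and 20.0 and 17.2 (0.40, -0.63 to 1.40), so neither interval left out 0. Alb, serum albumin made by liver, had 65.2 and 79.6 (0.89, 0.41 to 1.39). The other genes of the pluripotency list with most signal, Dppa3 and Gdf3, had 39.8 and 37.2 and 42.8 and 31.3.

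Gene lists were read against the set's own median of 0.03 and the -0.08 of all classed genes with a symbol, as descriptions with no test. Of all members with a symbol 52.0% were higher in sperm, and 5.86% of the set were 2-fold higher and 4.95% 2-fold lower (5.64% and 7.79% of all classed promoters), beside which the small counts below are to be read. Keratin, cornified envelope and junction genes had 35 of 58 higher in sperm and 23 lower, with a median of 0.22. Of these 58, 8 were 2-fold higher and 3 were 2-fold lower, and both Krtap19-1 and Krt80 belong to this list. Peptidase genes of the kallikrein, trypsin, cathepsin and ADAM families had 25 of 42 higher and a median of 0.19, among them Tmprss11f with 52.5 and 76.9 fragments. Zinc finger genes had 39 of 63 higher and a median of 0.18, with 6 past 2-fold higher and 0 past 2-fold lower. Neurotransmitter and hormone receptor genes had 26 of 44 higher and a median of 0.14, with 3 and 0 past 2-fold. The orphan receptor gene Gpr63 of that list had 68.8 and 77.3 fragments.

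Lists with medians near that of the set included cytochrome P450 and other detoxification genes (19 of 34 higher, 0.11), liver and plasma proteins (22 of 37, 0.10), ribosome, proteasome and respiratory chain genes (8 of 15, 0.09) and muscle genes (14 of 25, 0.08). Ion channels had 21 of 37 higher and a median of 0.04, with 0 past 2-fold higher and 3 past 2-fold lower. Solute carriers had 31 of 60 higher (0.02), and extracellular matrix genes 16 of 30 (0.01), with 4 and 6 past 2-fold higher and lower. Col10a1, the collagen of growth plate cartilage, had 47.9 and 72.9 fragments. Within the ribosome and respiratory chain list, Cox7b2, a cytochrome oxidase subunit, had 33.0 and 54.3, while Rpl4 had 79.2 and 30.5 with another start site 455 bp away.

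Lists of immune and developmental genes had medians below that of the set. Cytokine and receptor genes had 23 of 54 higher and 31 lower (median -0.07), and leukocyte surface and antigen presentation genes 30 of 64 higher and 34 lower (-0.07). Cxcr2, a neutrophil chemokine receptor, had 86.1 and 29.6 fragments, and Cd69, an early activation marker of lymphocytes, had 50.3 and 70.2. Developmental transcription factors had 10 of 24 higher and 14 lower, with a median of -0.18. Hoxb3 had 62.1 and 26.1, and Pou1f1, the pituitary factor, had 38.8 and 61.4. Spermatid and sperm genes were split 10 to 10 (0.02), with Crisp2, a sperm acrosome protein, at 39.3 and 55.8. The pluripotency list had 7 of 11 higher (0.17) and the meiotic list 2 of 5 (-0.09).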

How the data were processed

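MNase fragments were mapped in 1 ES cell and 13 sperm libraries. The submitters' processing notes name Bowtie, SAMtools 0.1.16 and the build mm9. The authors deposited a signal for ES cells, standard and unspun sperm, a pileup of fragments of 135 to 165 bp in 200 bins of 20 bp per start site, per the names of the tables. For supernatant and pellet they deposited whole-number counts in 200 bins per start site with CpG classes. Header labels step by 20 bp, but neighbouring start sites matched only at 50 bp per bin, which was used. The sources used here do not give the fragment size of the counts, the class limits, read filters or where the start sites came from. Neither kind is scaled to depth. For the 5-unit and 20-unit pellet samples the title and units field were followed, since the description names other doses.

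Sums within 1000 bp were divided by 22 (pileup) or 3 (counts), the median of an isolated fragment. In the counts 11.8% to 23.2% of isolated clusters held several fragments' worth. Reads carry no molecular identifiers. Start sites in 2 classes were used once, leaving 16482 of 16493. Of the set, 393 promoters (13.7%) have another start site within 4000 bp. Log2 ratios are of each promoter's share, with a pseudocount of 1 fragment. Dose was tested by exact permutation of the doses within series. Every group is 1 library, so p-values measure consistency over doses, not over animals. Counts were tested with edgeR 4.0.16 (quasi-likelihood, TMM, log2 units and fraction, at least 30 counts), checked on simulated data, and DESeq2 1.42.0. Other work used Python 3.11.15, numpy 2.4.6, pandas 2.3.3 and scipy 1.17.1. Symbols and promoter sequences are RefSeq's of GRCm38.p6.

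Genes were named by rule: the 10 highest and 10 lowest log2 ratios whose interval leaves out 0, the 5 strongest in each deep library, the 2 with most signal in each of 18 lists (1 of them, microRNA genes, with 0 members), fixed marker genes, and edgeR calls. One gene that this rule names is not reported here. The members and lists were chosen with earlier results of these data known. The groups by GC content, the sequence content of promoters past 2-fold and the neighbours of Skint3 were added after the data were seen.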

Additional observations from a re-analysis of the deposited data

How the results depend on the processing

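Of 329 alternative values, 293 kept their direction, side of the threshold or size. The share of the set in ES cells and standard sperm was 21.8% and 22.8% with isolated start sites alone, 22.1% and 24.1% with receptor genes kept, 20.2% and 21.3% on autosomes, 26.8% and 26.3% within 200 bp, and 18.5% and 19.1% within 2000 bp. The sperm ratio before the start was 0.704 with receptor genes. The median log2 ratio was 0.06 with receptor genes, -0.11 within 200 bp, -0.01 within 2000 bp, 0.09 with a pseudocount of 5 fragments and 0.13 with at least 60 fragments. Promoters 2-fold higher numbered 3 within 200 bp and 75 within 2000 bp, with no share over all classed promoters given at these settings. Those 2-fold lower numbered 3 within 200 bp, 45 with the pseudocount of 5 and 42 with at least 60 fragments. Fewer fragments per window, or fewer promoters tested, go with the counts at 200 bp and at 60 fragments, and for the others the cause was not tested. The slope before the start was 0.035, 0.040, 0.046 and 0.038 without the lowest doses, highest doses, unspun or pellet series, and no longer passed. The difference from high-CpG promoters before the start no longer passed without the highest doses (-0.018), unspun (-0.038) or pellet (-0.052) series, nor after it without the highest doses (-0.097), with fewer orderings in each case. Against low-CpG promoters the share slope passed, unadjusted, without the supernatant series (0.018), with isolated start sites (0.013) and within 2000 bp (0.009), and ranged from 0.008 to 0.017 with 1 library left out. The share slope itself ranged from -0.043 to -0.037, and that after the start from 0.073 to 0.10. edgeR called 1 promoter for fraction with a minimum of 1 count, and 1 for dose with counts divided by 3, neither in the set. With dose as a block of 2 libraries edgeR called 0 promoters for fraction, as without it. The labels give no replicate numbers, so the only pairing was by dose. In the titrations 34.1% to 87.1% of the promoters had no fragment, so depth limits single promoters there.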

Other observations

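The set holds 165 X-linked promoters beside 2702 on autosomes. Signal per X-linked promoter was 0.574 (0.556 to 0.593) times that per autosomal promoter in ES cells and 0.640 (0.617 to 0.663) in standard sperm. In the unspun libraries it was 0.494, 0.470, 0.293 and 0.322 from 0.5 to 50 units, in supernatant 0.546, 0.676, 0.384 and 0.423 from 1 to 100 units, and in pellet 0.486, 0.393, 0.362 and 0.376. The value was lower at the highest than at the lowest dose in each series, on 12 to 83 X-linked fragments per library. Their intervals overlapped, with 0.392 to 0.614 and 0.226 to 0.447 in unspun and 0.408 to 0.716 and 0.327 to 0.539 in supernatant. In pellet they were 0.249 to 0.858 and 0.274 to 0.504. High-CpG and low-CpG promoters had like values, 0.547 and 0.608 in ES cells and 0.582 and 0.648 in standard sperm. Of the promoters past 2-fold between standard sperm and ES cells, 16 of the 161 higher and 1 of the 136 lower were on X. These counts are to be read beside the 165 X-linked and 2702 autosomal promoters of the whole set, not all of which reached the depth needed. The X-linked share of promoters past 2-fold is not given for all classed promoters. The counts therefore do not show a difference particular to the set, and an effect of the X chromosome was not tested.

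Beside Skint3 and its neighbour, 8 promoters of the set had under 3 fragments in ES cells or standard sperm. Arid2, a chromatin remodelling subunit, had 5.09 in ES cells and 0 in sperm within 1000 bp, but 47.9 and 16.7 within 2000 bp. Dyrk1a, a protein kinase, had 6.32 and 0.318 within 1000 bp and 53.8 and 32.6 within 2000 bp. Phf13 had 0 and 2.91 within 1000 bp and 23.6 and 25.8 within 2000 bp. At these 3 promoters the low signal was thus near the start site, whereas Skint3 had 0 fragments in ES cells over both windows.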
